A study of Mus musculus with 6 samples.

Results

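Imprinted genes are described here, 37 genes from a list of well-known mouse imprinted loci in 18 chromosomal clusters, among 53060 genes and merged loci in the count table. They were chosen by name, with earlier results of these data known, and each of the 37 was found at 1 locus that none of the others shared. Of these loci, 25 name 1 gene and 12 name several, whose counts are not separated. An imprinted gene is copied mainly from 1 parental chromosome. DNA methylation laid down in the egg or the sperm marks an imprinting control region, and the mark is kept through the divisions of the embryo's cells. Many of these genes regulate fetal growth, placental function and brain development, and several clusters hold a long non-coding RNA that silences its neighbours on the same chromosome. The counts do not separate the parental alleles, so each value below is the sum over both.

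The RNA-seq libraries came from neural progenitor cells (NPCs) grown as neurospheres from the ganglionic eminences of E13.5 mouse fetuses, used at passage 2 in medium with 20 ng/ml epidermal growth factor. As a model they are limited in that the KO fetuses lacked Armc5 before the cells were taken, the spheres are mixed cultures, and the sources do not say how many fetuses stand behind a library. There were 3 libraries of Armc5 knockout (KO) NPCs and 3 of wild-type (WT) NPCs, and every group shared the strain label 129 sv X CD1, the stage, the growth factor and the passage; the study's methods give the mice as F1 animals of another cross. ARMC5 is an adaptor protein of a ubiquitin ligase, and the comparison asks how its loss affects NPC gene expression.

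Library totals at named genes ran from 52995791 to 85170379 counts in KO NPCs and from 66018919 to 73445736 counts in WT NPCs. Armc5 itself had 84, 119 and 43 counts in KO NPCs against 1966, 2114 and 1797 counts in WT NPCs, so the genotype labels fitted. Its adjusted p was 0.0864 in the edgeR quasi-likelihood test, in which no gene was called. KO NPC 3 stood apart from the other libraries. It had 4.89% of its counts at loci that name no gene, against 1.31% to 1.72% in the other 5 libraries. Its astrocyte markers summed to 3208 CPM against 1235 to 1698 CPM, with 5 of the 8 highest in this library, and 10 neural progenitor markers to 3382 CPM against 4325 to 4997 CPM, with 5 lowest and 2 highest in it. Of 7 endothelial and mural markers, which summed to 77.5 CPM against 13.8 to 18.7 CPM, 3 were highest in it and the sum came mainly from Pdgfrb (58.4 CPM) and Kdr (14.8 CPM). Of the same list in this library, Acta2 was 0.475 CPM against 8.61 to 12.5 CPM, and the endothelial markers Cdh5 and Cldn5 were at 0 and 0.0170 CPM. Markers of microglia and of blood were close to 0, at no more than 0.865 and 0.233 CPM in sum. The neural progenitor marker Sox2 was present in every library and highest in KO NPC 3, at 811 CPM against 535 to 626 CPM, while Vim was 327 CPM in KO NPC 3 against 718 to 965 CPM in the other libraries. CPM here means the count over the library size, with that size scaled by edgeR's TMM method and put on the usual CPM scale. Bulk counts cannot tell fewer cells of a type from less RNA per cell.

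None of the imprinted genes passed the test between genotypes. Of the 37, 35 passed the filter on low counts, and edgeR's quasi-likelihood test called 0 of 35 at an adjusted p of 0.05, the background over 19073 genes being 0% as well. At an unadjusted p under 0.05 the count was also 0 of 35 imprinted genes, against 1.61% of all genes. The smallest unadjusted p was 0.117, at Cdkn1c, and every adjusted p lay between 0.983 and 0.997. The other tools called no imprinted gene either. edgeR's likelihood ratio test called 0 of 35 against 0.0891% of all genes, and DESeq2 called 0 of 35 against 0.184%. With the replicate number as a block, the likelihood ratio test called 0 of 35 against 0.199%. No imprinted gene had 3 KO libraries on 1 side of the 3 WT libraries. Over all genes tested, 2.74% had every KO library above every WT library and 3.28% every KO library below.

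Fold changes lay on both sides of 0. The estimate was above 0 for 14 imprinted genes and below 0 for 21, with a median log2 fold change (KO over WT) of −0.10, beside −0.01 over all genes. With scaling by the count of Rn7sk, a small nuclear RNA, the medians were −0.30 for the imprinted genes and −0.26 for all genes, and the split was 8 above and 27 below. With total counts alone it was 18 above and 17 below, so the direction of the small estimates depends on the scaling. The median absolute log2 fold change was 0.27 for the imprinted genes and 0.23 for all genes. The extremes were Rian at −1.15 ± 0.69 and Cdkn1c at 1.35 ± 0.73 (log2 fold change ± SE, n = 3 each). Each rested on 1 library, since Rian was −0.24 without WT NPC 3 and Cdkn1c 0.01 without KO NPC 3.

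**Figure D1:**
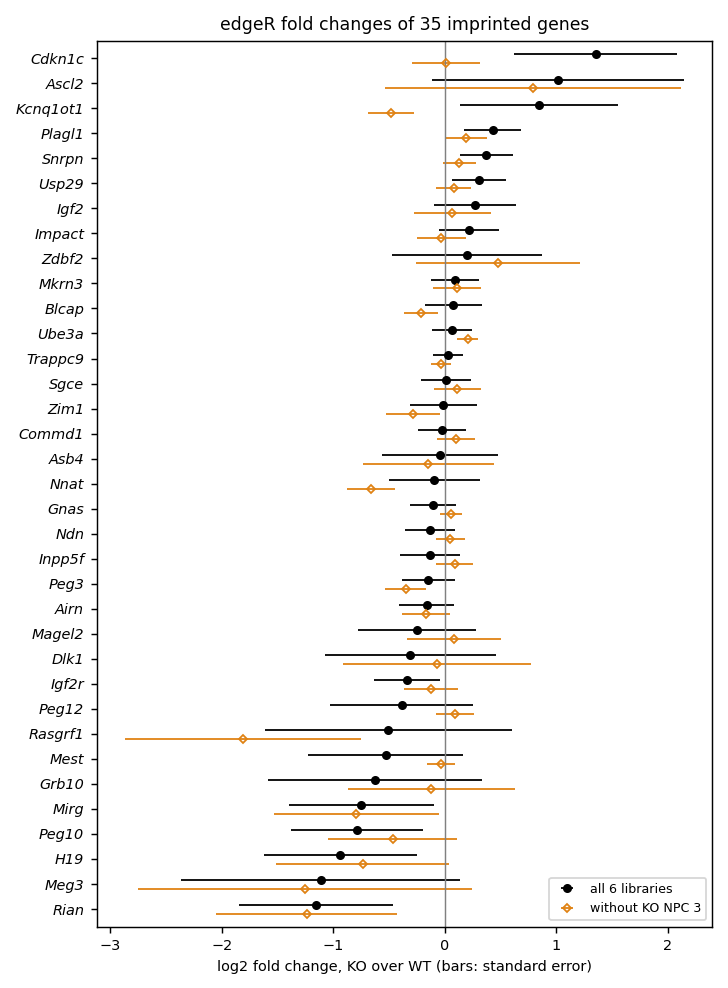
Log2 fold changes (KO over WT) of the 35 imprinted genes tested, with bars of 1 standard error from edgeR, from all 6 libraries (black circles) and without KO NPC 3 (orange diamonds). The estimates from all 6 libraries run between −1.15 for Rian and 1.35 for Cdkn1c, and Cdkn1c lies at 0.01 without KO NPC 3.

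Levels per kilobase of merged exon put Mest first, at 139 ± 100 CPM per kb in KO NPCs and 200 ± 15.9 CPM per kb in WT NPCs (SD, n = 3 each). Next in WT order were Peg10 (56.6 ± 31.6 in KO NPCs and 97.9 ± 66.4 in WT NPCs), Nnat (72.7 ± 41.2 in KO NPCs and 77.6 ± 17.1 in WT NPCs) and Gnas (51.6 ± 10.7 in KO NPCs and 55.5 ± 3.47 in WT NPCs), all in CPM per kb. In WT NPCs, Peg10 ran from 57.2 to 174 CPM per kb, which spanned the range of Nnat (63.0 to 96.5) and overlapped that of Gnas (51.6 to 58.3). Nnat was above Gnas in each WT library (lowest Nnat value 63.0, highest Gnas value 58.3 CPM per kb). Mest in each WT library was above every library of Peg10, Nnat and Gnas. Ndn followed at 22.0 ± 5.99 CPM per kb in KO NPCs and 24.2 ± 0.948 CPM per kb in WT NPCs, close to Peg12 at 15.9 ± 11.3 CPM per kb in KO NPCs and 20.8 ± 2.18 CPM per kb in WT NPCs. The low end held Dlk1, Rian, Mirg, Rasgrf1 and Ascl2, with genotype means of 0.169 CPM per kb or less. Phlda2, a gene that restrains placental growth, had 3, 9 and 3 counts in KO NPCs against 0, 6 and 0 counts in WT NPCs. Slc22a18, a membrane transporter gene, had 0 counts in all 6 libraries, and a count of 0 allows up to 3 counts per library, or 0.0361 to 0.0509 CPM. Neither entered the test.

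**Figure D2:**
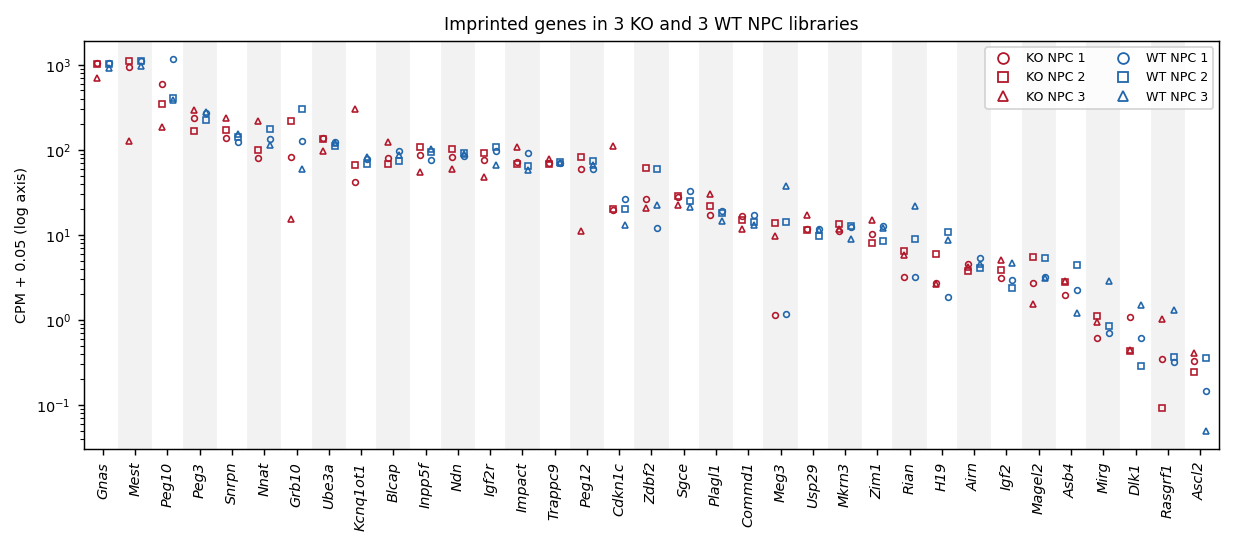
CPM plus 0.05 on a log axis for the 35 imprinted genes that passed the filter, ordered by mean CPM, with the 3 KO NPC libraries (red, left) and the 3 WT NPC libraries (blue, right) and a marker shape for each replicate number. The genotypes overlap at every gene, and Mest, Peg12 and Grb10 have 1 KO library far below the rest.

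Mest, which encodes a membrane protein of the alpha/beta hydrolase fold and is read from the paternal chromosome, had 941, 1123 and 129 CPM in KO NPCs 1, 2 and 3 against 1098, 1109 and 958 CPM in WT NPCs. Only KO NPC 3 lay outside a narrow range, 7.30-fold under the lowest of the other 5 libraries. The log2 fold change was −0.53 ± 0.70 with all libraries and −0.03 ± 0.13 without KO NPC 3. Peg12, a single-exon gene related to the GSK3-binding Frat proteins, had 60.0, 81.9 and 11.1 CPM in KO NPCs against 60.2, 74.1 and 65.6 CPM in WT NPCs. It had the same shape, with KO NPC 3 at 5.39-fold under the lowest other library and log2 fold changes of −0.39 ± 0.64 with it and 0.09 ± 0.17 without it.

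Cdkn1c and Kcnq1ot1, neighbours in the Kcnq1 cluster, had the opposite shape. Cdkn1c encodes the cell cycle inhibitor p57, and it had 19.7, 20.1 and 111 CPM in KO NPCs against 26.1, 19.9 and 13.1 CPM in WT NPCs. Without KO NPC 3, at 4.25-fold over the highest other library, the log2 fold change of 1.35 ± 0.73 became 0.01 ± 0.30. Kcnq1ot1, the long antisense RNA of the paternal chromosome that silences its neighbours in cis, had 42.5, 66.1 and 300.0 CPM in KO NPCs against 77.2, 68.3 and 82.2 CPM in WT NPCs. KO NPC 3 was the highest library and the other 2 KO libraries the lowest of all 6. The log2 fold change thus was 0.84 ± 0.71 with KO NPC 3 and −0.48 ± 0.21 without it. Ascl2, a transcription factor of the trophoblast in the same cluster, had 23, 14 and 21 counts in KO NPCs against 6, 22 and 0 counts in WT NPCs, too few to set the genotypes apart.

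KO NPC 3 deviated at other genes as well. Among the imprinted genes it was the lowest library at 11 of 35 (31.4%) and the highest at 13 of 35 (37.1%), against 36.7% and 34.9% of all genes tested. It lay over 2-fold from the mean of the other libraries at 9 of 35 imprinted genes (25.7%) and at 34.4% of all genes. WT NPC 3 lay as far out at 9 of 35 imprinted genes too (25.7%), beside 9.47% of all genes, and WT NPC 2 at 7 of 35 (20.0%), beside 7.67%. The part of the marker differences of KO NPC 3 in the values of Mest, Peg12, Cdkn1c and Kcnq1ot1 was not tested.

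The DNA just before the transcription start is shown for these genes, since in several imprinted clusters, though not in all, the promoter lies within the methylated control region. Whether the stretches shown fall in such a region was not tested. Each line gives the 250 bases before the start in mouse build GRCm38.p6 from RefSeq, 5′ to 3′ on the gene's strand. Capitals mark TGCCGC, or GCGGCA on the other strand, the core of the sequence bound by ZFP57, a zinc finger protein that protects methylated imprints. The Mest window is chr6:30737800-30738049 (plus strand), that of Peg12 chr7:62464511-62464760 (minus strand) and that of Kcnq1ot1 chr7:143296548-143296797 (minus strand).
Mest: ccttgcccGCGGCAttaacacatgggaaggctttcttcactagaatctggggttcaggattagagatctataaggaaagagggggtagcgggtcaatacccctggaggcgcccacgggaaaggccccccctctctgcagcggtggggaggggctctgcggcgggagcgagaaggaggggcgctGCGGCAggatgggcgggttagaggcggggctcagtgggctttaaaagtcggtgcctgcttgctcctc
Peg12: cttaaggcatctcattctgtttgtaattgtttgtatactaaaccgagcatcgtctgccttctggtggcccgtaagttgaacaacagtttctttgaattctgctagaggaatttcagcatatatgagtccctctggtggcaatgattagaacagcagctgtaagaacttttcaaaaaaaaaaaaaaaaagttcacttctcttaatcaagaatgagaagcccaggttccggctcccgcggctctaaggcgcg
Kcnq1ot1: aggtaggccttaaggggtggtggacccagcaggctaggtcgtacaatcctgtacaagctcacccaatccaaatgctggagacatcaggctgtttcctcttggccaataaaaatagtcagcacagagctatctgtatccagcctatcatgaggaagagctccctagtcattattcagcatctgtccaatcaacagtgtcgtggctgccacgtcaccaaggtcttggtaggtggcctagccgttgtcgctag

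The Mest window shown held 14 CpG and 2 copies of the core, the Peg12 window 8 CpG and none, and the Kcnq1ot1 window 5 CpG and none. Windows were on file for 31 of the 37 imprinted genes, 47 windows in all, and 6 of the 47 (12.8%) held the core in these 250 bases, beside 8.68% of all 32851 windows. They belonged to 5 of the 31 genes, and the pair of Mest windows with the core differ in start by only 3 bases, while a Mest window further upstream, chr6:30733256-30733505, held 7 CpG and no core. The median number of CpG was 10 per imprinted-gene window and 6 per window over all genes. Cdkn1c, H19, Peg10, Sgce, Impact and Trappc9 were not matched. These are matches of letters in a fixed window and not binding sites, and the methylation of these bases was not measured here.

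Some imprinted genes varied widely between cultures of the same genotype. Meg3, a maternally expressed long non-coding RNA, had the widest range of those read in all 6 libraries, 34.0-fold between its highest and lowest library. It had 1.11, 13.6 and 9.70 CPM in KO NPCs 1, 2 and 3 against 1.14, 14.1 and 37.7 CPM in WT NPCs 1, 2 and 3. Both libraries numbered 1 were low. The ratio of KO to WT was 0.972 at number 1, 0.967 at number 2 and 0.258 at number 3. Rian, a host of small nucleolar RNAs downstream of Meg3, had 3.18, 6.42 and 5.71 CPM in KO NPCs against 3.17, 8.84 and 22.1 CPM in WT NPCs. Its counted locus merges 30 gene names, miRNA genes among them. Mirg, further along the cluster in a locus that merges 23 gene names, had 0.566, 1.07 and 0.898 CPM in KO NPCs against 0.649, 0.810 and 2.80 CPM in WT NPCs. At all 3 genes WT NPC 3 was the highest library and the number 1 libraries the lowest, with genotypes overlapping. Their log2 fold changes were −1.11 ± 1.25 for Meg3, −1.15 ± 0.69 for Rian and −0.75 ± 0.65 for Mirg. Without WT NPC 3 they were 0.09 ± 1.32, −0.24 ± 0.57 and 0.21 ± 0.49, so this 1 library set the size of all 3 estimates and the sign of those of Meg3 and Mirg.

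Dlk1, the paternally expressed gene of this cluster, encodes a membrane protein with EGF-like repeats. It was barely read, with 1.04, 0.384 and 0.390 CPM in KO NPCs against 0.570, 0.237 and 1.44 CPM in WT NPCs. It did not follow Meg3: WT NPC 3 and KO NPC 1 were its highest libraries, and the ratio of Meg3 to Dlk1 counts ran between 0.10 and 5.85 on the log2 scale over the 6 libraries. Markers of several cell types also went with the replicate number. In both genotypes, 8 of 10 neuron markers were highest in number 3 (15.1% of all genes tested), and 7 of 10 neuron, 5 of 8 astrocyte and 6 of 9 oligodendrocyte lineage markers were lowest in number 1 (15.7% of all genes tested). Dcx, a microtubule protein of young neurons, had 21.3, 64.0 and 287 CPM in KO NPCs against 17.3, 44.5 and 231 CPM in WT NPCs. The part of these markers in the Meg3, Rian and Mirg values was not tested.

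The Meg3, Rian and Mirg loci name 38 miRNA genes in the file, 2, 14 and 22 of them, and the H19 and Mest loci name 1 each. The mature miRNAs were not measured, because the counts come from assembled loci that merge several gene names. The position of miR-127-3p, chr12:109592888, is upstream of the Rian promoter window, chr12:109603695-109603944. That of miR-376b-5p, chr12:109723471, is upstream of the Mirg promoter window, chr12:109734731-109734980. Counts at these loci thus cannot be assigned to Rian or Mirg RNA alone. The lines show, 5′ to 3′ from RefSeq (GRCm38.p6), 1 or 2 mature forms per locus with the seed (bases 2 to 8) in capitals.
mmu-miR-770-5p (Meg3 locus): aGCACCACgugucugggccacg
mmu-miR-127-3p (Rian locus): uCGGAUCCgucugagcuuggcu
mmu-miR-376b-5p (Mirg locus): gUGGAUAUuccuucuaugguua
mmu-miR-376c-5p (Mirg locus): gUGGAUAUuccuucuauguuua
mmu-miR-675-5p (H19 locus): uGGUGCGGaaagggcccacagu
mmu-miR-335-5p (Mest locus): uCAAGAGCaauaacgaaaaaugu

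The 2 miR-376 forms have the same seed. Among 71 mature miRNA entries of the 3 chromosome 12 loci there were 65 seeds, 6 of them held by 2 entries each. In 1 of these pairs both entries are miR-3070-5p, listed for Mir3070a and Mir3070b with identical bases. The Meg3 promoter window, chr12:109540746-109540995 (plus strand, GRCm38.p6), is shown for its culture-to-culture range and holds 1 copy of the ZFP57 core, in capitals, and 10 CpG.
Meg3: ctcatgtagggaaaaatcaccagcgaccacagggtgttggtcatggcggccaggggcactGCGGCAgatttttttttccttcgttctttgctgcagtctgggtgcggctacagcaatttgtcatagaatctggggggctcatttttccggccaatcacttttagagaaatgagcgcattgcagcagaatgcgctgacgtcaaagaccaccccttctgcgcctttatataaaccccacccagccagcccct

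H19, a maternally expressed long non-coding RNA, likewise differed among cultures. It had 2.64, 5.85 and 2.59 CPM in KO NPCs against 1.81, 10.7 and 8.69 CPM in WT NPCs. WT NPC 1 was the lowest library and the genotypes overlapped, with a log2 fold change of −0.94 ± 0.68. Igf2, the paternally expressed growth factor next to it, had 3.08, 3.80 and 5.02 CPM in KO NPCs against 2.91, 2.32 and 4.64 CPM in WT NPCs. KO NPCs were above WT NPCs at each replicate number, by ratios of 1.06, 1.64 and 1.08, and the log2 fold change was 0.27 ± 0.37. The assembled Igf2 locus runs from 142399464 to 142669942 on chromosome 7 of GRCm38 and so spans the H19 position on the same strand, which leaves the split of reads between them uncertain.

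Grb10, an adaptor that restrains insulin receptor signalling and is read from the paternal chromosome in neurons, had 83.5, 219 and 15.4 CPM in KO NPCs against 129, 302 and 60.4 CPM in WT NPCs. Number 2 was the highest and number 3 the lowest in both genotypes, and KO was below WT at each number, at 0.649, 0.724 and 0.255 of the WT level. Peg10, a gene derived from a retrotransposon, had 603, 344 and 185 CPM in KO NPCs against 1164, 413 and 382 CPM in WT NPCs. The order of the numbers was shared here as well, with number 1 highest, and KO stood at 0.518, 0.834 and 0.485 of the WT level. Zdbf2, a paternally expressed zinc finger gene, had 26.4, 61.4 and 20.6 CPM in KO NPCs against 12.1, 59.5 and 22.7 CPM in WT NPCs, so that number 2 was again highest in both.

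With the replicate number as a block, edgeR's quasi-likelihood test gave log2 fold changes of −0.75 ± 0.23 for Peg10 (unadjusted p = 0.0272, adjusted p = 0.968) and −1.01 ± 0.35 for Grb10 (unadjusted p = 0.0449, adjusted p = 0.968). Without the block, they were −0.79 ± 0.59 and −0.63 ± 0.96. Without the block, Peg10 was −0.06 ± 0.50 when WT NPC 1 was left out. Grb10 was 0.19 ± 1.03 when WT NPC 2 was left out and −0.12 ± 0.75 when KO NPC 3 was left out. Neither passed the adjusted threshold, and 2 of 35 imprinted genes under an unadjusted 0.05 with the block stood beside 2.05% of all genes. KO was below WT at every replicate number for 5 of 35 imprinted genes (14.3%; Meg3, Igf2r, Airn, Peg10 and Grb10), beside 11.8% of all genes, and above it for 2 of 35 (5.71%; Igf2 and Snrpn), beside 10.6%. The order of the 3 numbers was the same in both genotypes at 10 of 35 imprinted genes (28.6%) and 21.4% of all genes. Within WT NPCs, the median SD of log2 CPM was 0.32 over the imprinted genes and 0.25 over all genes, and within KO NPCs it was 0.44 and 0.49.

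**Figure D3:**
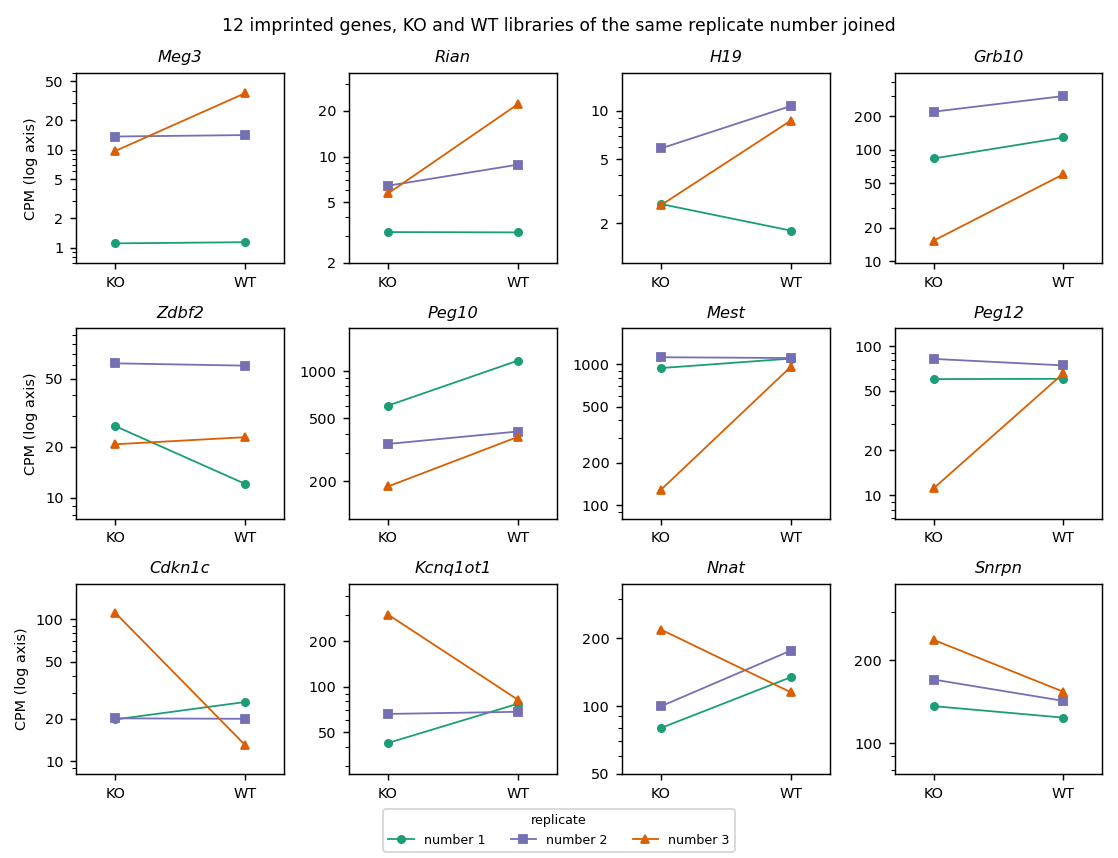
CPM on a log axis of 12 imprinted genes in KO NPCs (left of each panel) and WT NPCs (right), with the libraries of 1 replicate number joined by a line. Meg3, Grb10 and Zdbf2 keep much of their order by number across genotypes, and at Mest, Peg12, Cdkn1c and Kcnq1ot1 the number 3 line alone is steep.

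Nnat, which encodes the membrane proteolipid neuronatin and lies in an intron of Blcap, had 79.8, 99.7 and 219 CPM in KO NPCs against 134, 176 and 115 CPM in WT NPCs. KO NPCs 1 and 2 were the lowest of the 6 libraries and KO NPC 3 the highest. The log2 fold change was −0.10 ± 0.41 with all libraries and −0.66 ± 0.22 without KO NPC 3. In that fit the unadjusted p was 0.0273 and the adjusted p 1.00 (edgeR quasi-likelihood test). Nnat was the 1 imprinted gene of 35 under an unadjusted 0.05 there, beside 2.77% of all genes. Blcap, on the opposite strand, had 80.3, 68.5 and 124 CPM in KO NPCs against 96.6, 74.2 and 88.1 CPM in WT NPCs. KO NPC 3 was its highest library too, and the groups overlapped. The libraries were made to keep strand, but the sources used here do not say whether the counting used it. Reads of opposite-strand partners that overlap, such as Nnat and Blcap, Airn and Igf2r, or Kcnq1ot1 and Kcnq1, may therefore have been split between them.

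The Snrpn/Ube3a cluster, the mouse counterpart of the Prader-Willi and Angelman region, held 6 of the imprinted genes. Snrpn, whose locus merges 6 gene names and encodes the neural spliceosome protein SmN, had 136, 170 and 237 CPM in KO NPCs against 124, 142 and 154 CPM in WT NPCs. KO NPCs 2 and 3 were the highest of the 6 libraries but KO NPC 1 lay among WT, with a log2 fold change of 0.37 ± 0.24. Ube3a, an E3 ubiquitin ligase silenced on the paternal chromosome only in neurons, had 137, 135 and 97.6 CPM in KO NPCs against 124, 110 and 119 CPM in WT NPCs. KO NPC 3 was lowest and the other KO libraries highest, with 0.06 ± 0.18. Ndn and Magel2, of the MAGE protein family, had log2 fold changes of −0.14 ± 0.22 and −0.25 ± 0.53 over CPM ranges of 59.1 to 103 and 1.51 to 5.45. Mkrn3, a RING finger gene linked to the timing of puberty, had 0.09 ± 0.22.

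In the Igf2r cluster, Igf2r encodes the receptor that clears IGF2 and had 76.0, 91.3 and 48.4 CPM in KO NPCs against 97.5, 109 and 66.3 CPM in WT NPCs. Airn, the antisense RNA that silences Igf2r on the paternal chromosome outside neurons, had 4.55, 3.71 and 4.15 CPM in KO NPCs against 5.30, 4.09 and 4.52 CPM in WT NPCs. Both were lower in KO NPCs at each number and overlapped between genotypes, with log2 fold changes of −0.34 ± 0.30 and −0.16 ± 0.24. The Peg3 cluster was even. Peg3, a large zinc finger protein gene, had 235, 169 and 293 CPM in KO NPCs against 272, 223 and 277 CPM in WT NPCs, and the log2 fold change was −0.15 ± 0.24. Its maternally expressed neighbour Zim1 had 10.2, 8.07 and 14.9 CPM in KO NPCs against 12.8, 8.50 and 12.2 CPM in WT NPCs, and −0.01 ± 0.30. The ubiquitin protease gene Usp29, which starts beside Peg3, had 0.30 ± 0.24 over 9.55 to 17.3 CPM.

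Beside Peg10, the ankyrin repeat gene Asb4 had 1.90, 2.77 and 2.85 CPM in KO NPCs against 2.23, 4.37 and 1.15 CPM in WT NPCs. Its WT libraries held both the highest and the lowest value. Sgce, the epsilon-sarcoglycan gene that shares a start region with Peg10, had 0.01 ± 0.22 on the log2 scale over 21.1 to 32.7 CPM, so it did not follow the range of Peg10. The steadiest imprinted gene was Trappc9, of a vesicle transport complex, with 69.3, 68.9 and 78.0 CPM in KO NPCs against 69.8, 72.7 and 69.9 CPM in WT NPCs. Its highest library was 1.13-fold over its lowest, and the log2 fold change was 0.03 ± 0.14.

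The other imprinted genes of single-gene clusters gave these values. Gnas, which encodes the stimulatory G protein subunit and merges several imprinted transcripts, had 702 to 1039 CPM in KO NPCs and 925 to 1046 CPM in WT NPCs, with −0.11 ± 0.21. Plagl1, a zinc finger gene of growth control, had 17.1 to 30.2 CPM in KO NPCs and 14.7 to 18.9 CPM in WT NPCs, with 0.43 ± 0.25. Impact, an inhibitor of the GCN2 kinase, had 0.22 ± 0.27, and the phosphoinositide phosphatase gene Inpp5f −0.14 ± 0.27. Commd1, whose locus merges 4 names, had −0.03 ± 0.21. Rasgrf1, a Ras exchange factor, had 25, 3 and 57 counts in KO NPCs against 17, 23 and 86 counts in WT NPCs, with −0.51 ± 1.10.

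**Figure D4:**
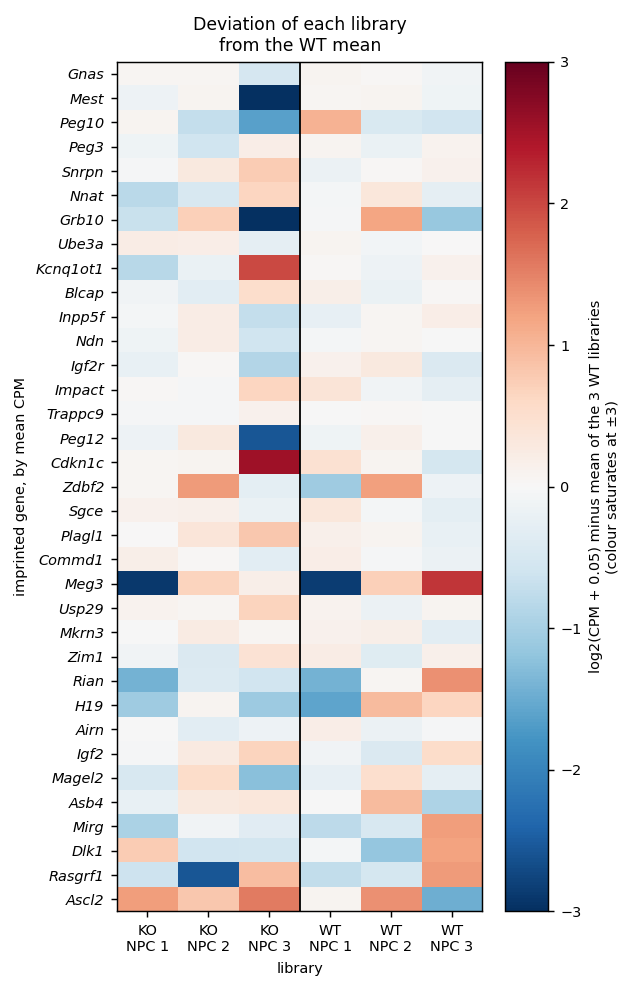
Heat map of log2(CPM + 0.05) minus the mean of the 3 WT NPC libraries, for the 35 imprinted genes (rows, by mean CPM) in the 3 KO NPC libraries (left) and the 3 WT NPC libraries (right), with red above and blue below. KO NPC 3 is bluest at Mest, Grb10 and Peg12 and reddest at Cdkn1c and Kcnq1ot1, and both number 1 libraries are blue at Meg3.

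Ratios of neighbouring imprinted genes were compared within libraries, where no scaling is needed. In most of these pairs the genes are read from opposite parental chromosomes, but Ube3a is biased to the maternal chromosome only in neurons and Blcap differs by isoform. A ratio of counts + 0.5 could be formed for 9 pairs, 8 of imprinted genes from the list and 1 of Trappc9 with its neighbour Peg13. The genotypes overlapped at all 9 pairs, and the two-sided exact permutation p ran between 0.2 and 0.9 with an adjusted p of 0.9 for each (n = 3 each, smallest p possible 0.1). The log2 ratio of Cdkn1c to Kcnq1ot1 was −1.42 ± 0.31 in KO NPCs and −1.998 ± 0.58 in WT NPCs (SD, n = 3 each). It was −1.43 in KO NPC 3, where both genes were at their highest. That of H19 to Igf2 was −0.18 ± 0.79 in KO NPCs and 0.81 ± 1.45 in WT NPCs. That of Igf2r to Airn was 4.07 ± 0.54 in KO NPCs and 4.27 ± 0.44 in WT NPCs, and that of Zim1 to Peg3 −4.40 ± 0.11 in KO NPCs and −4.54 ± 0.15 in WT NPCs. The differences (KO minus WT) of the others were −0.57 for Meg3 to Dlk1, 0.89 for Asb4 to Peg10, 0.25 for Blcap to Nnat, −0.29 for Ube3a to Snrpn and −0.05 for Trappc9 to Peg13.

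**Figure D5:**
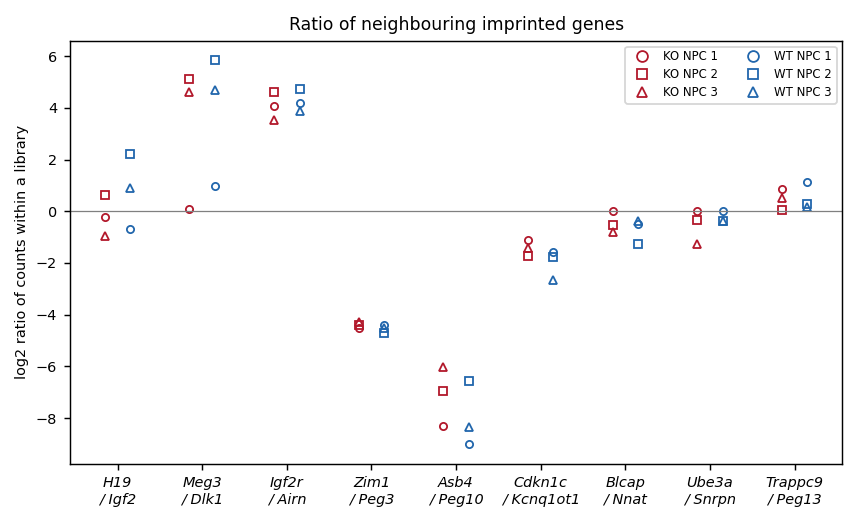
Log2 ratio of counts (each + 0.5) of 9 pairs of neighbouring imprinted genes within each library, with KO NPCs in red on the left, WT NPCs in blue on the right and a marker shape for each replicate number. The genotypes overlap at every pair, and the Meg3 to Dlk1 ratio spreads from 0.10 to 5.85 by culture.

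All 37 loci together took 0.388%, 0.409% and 0.327% of the named counts in KO NPCs against 0.470%, 0.425% and 0.385% in WT NPCs. KO NPC 3 had the lowest share and WT NPC 1 the highest. The genotypes overlapped, and the share was lower in KO NPCs at every replicate number. The difference in mean log2 share was −0.19 (KO minus WT, two-sided exact permutation p = 0.3, n = 3 each), and paired by number the exact p was 0.25, the smallest that 3 pairs allow. Without KO NPC 3 the difference was −0.09, and without WT NPC 1 it was −0.12. Gnas was the locus with the most counts, and without it the difference was −0.23 (exact permutation p = 0.2). Mest and Peg10 also held many counts and varied far more between libraries. Mest had 7601 counts in KO NPC 3 against 65698 to 81813 counts in the other libraries. Peg10 had 73499 counts in WT NPC 1 against 10920 to 50077 counts in the others. The share without Mest and Peg10 was not tested, so the difference may rest on them.

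A second list of 50 imprinted genes gave the same count. Of its 47 loci outside the 37, 34 were tested and 0 were called, also at an unadjusted p under 0.05 (quasi-likelihood fit), and the likelihood ratio test and DESeq2 called 0. Their median log2 fold change was −0.09, with 13 above 0 and 21 below. The most abundant was Cd81, a tetraspanin gene, at 741, 554 and 738 CPM in KO NPCs against 972, 599 and 778 CPM in WT NPCs. Of 20 factors that set, protect or erase imprints, 17 were tested and 0 called by the same 3 tests, also with 0 at an unadjusted p under 0.05, with a median of 0.07. Among the most abundant, Dnmt1, the maintenance DNA methyltransferase, had 369, 391 and 80.2 CPM in KO NPCs against 302, 358 and 379 CPM in WT NPCs. Trim28, the corepressor that ZFP57 recruits, had 320, 315 and 151 CPM in KO NPCs against 263, 286 and 291 CPM in WT NPCs. KO NPC 3 was the lowest library at both, and KO NPCs 1 and 2 were higher than every WT library at Trim28 but not at Dnmt1. The most abundant factor, Cbx5, whose locus also names Itga5, went the other way. It had 773 CPM in KO NPC 3 against 385 to 588 CPM in the other libraries. Of the 17 factors tested, KO NPC 3 was lowest at 7 and highest at 5.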

How the data were processed

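RNA-seq was measured in 3 KO and 3 WT NPC libraries (paired-end, rRNA depleted with QIAseq FastSelect). Per the labels and the study's methods, the authors processed reads with Trimmomatic, STAR, Picard and StringTie on GRCm38 and deposited whole-number counts per assembled locus; versions are not given in the sources used here. The deposited table also holds the authors' log2 CPM, as such and relative to Rn7sk, and their genotype means, which were not used. Of 59699 loci, 6596 name no gene (1.31% to 4.89% of counts) and were left out, and loci of the same gene were summed to 53060.

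Counts were tested with edgeR 4.0.16 (glmQLFit and glmQLFTest, TMM scaling, filterByExpr with a minimum count of 10) in R 4.3.3, with Benjamini-Hochberg adjustment over 19073 genes and a threshold of 0.05. DESeq2 1.42.0, edgeR's likelihood ratio test, Rn7sk scaling, total counts, no filter, a replicate block and the omission of each library were alternatives, and the fits were checked on simulated counts. Shares and ratios were tested by exact permutation, which with 3 against 3 cannot go below 0.1. Sums over all loci and a pseudocount of 1 for ratios were also tried. Counting intervals and floors cover counting error only. Libraries of the same replicate number deviated together from their genotype means (r = 0.413, 0.169 and 0.195 for numbers 1, 2 and 3, against 0.0579 or less for unlike numbers). The numbers were taken as pairs only in the fits with a replicate block and in comparisons within a number. The main fit had no block, so its p values and standard errors ignore the pairing. This pairing comes from the data and the study's mention of paired replicates. All values were given for genes in a pair of imprinted neighbours, and other genes by range, with Mest, Peg12, Grb10, Zdbf2, Rian, Mirg and the low-count genes set out in full after their values were seen. Of other lists, only genes among the 4 with the highest mean CPM, and defining markers at or near 0, were named. The members and lists were chosen with earlier results of these data known.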

Additional observations from a re-analysis of the deposited data

How the results depend on the processing

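No imprinted gene was called in any of the 17 settings, the main one and 16 others, and the counts at an unadjusted p under 0.05 were 0 to 2. Those genes were Rian under Rn7sk scaling (log2 fold change −1.69), Cdkn1c with no filter (1.26), Peg10 and Grb10 with the replicate block, Nnat without KO NPC 3 or both number 3 libraries (−0.66 and −0.80), and H19 and Rian without WT NPC 1 (−1.39 and −1.58). Over all genes, 0 to 90 were called, by setting. Those under an unadjusted 0.05 were 359 of 19073 with Rn7sk scaling and 945 of 42886 with no filter. They were 531 of 18936 without both number 3 libraries and 198 of 20529 without WT NPC 1. The sign of an imprinted gene's uncalled estimate changed in 84 gene-by-setting fits and was the same in 476. It changed in 14 of 35 genes with both number 3 libraries left out and in 10 of 35 without KO NPC 3. Kcnq1ot1 was −0.48 without KO NPC 3 and 0.84 with it. No neighbouring pair had genotypes that did not overlap, against 0 to 2 pairs when a library was left out, and with the replicate block 3 pairs moved the same way at every number. The Armc5 difference was −4.68 and missed the threshold, and it passed under Rn7sk scaling (−4.94), no filter (−4.70), the likelihood ratio test (−4.68, with the replicate block −4.75) and DESeq2 (−4.67). Both tests without KO NPC 3, added after seeing the data, gave −4.46. The cause was not tested. Genes such as Dlk1, Ascl2 and Rasgrf1, at under 100 counts in each library, allow little to be said of differences.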
